A study of Mus musculus with 4 samples.

Results

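The Hox genes of the 4 mammalian clusters (Hoxa, Hoxb, Hoxc and Hoxd) were examined in mouse skin at E17.5 (embryonic day), on 4 arrays. Members were all genes whose symbol in the platform annotation is Hoxa, Hoxb, Hoxc or Hoxd followed by a number, with a probe set naming that gene alone. This gave 37 of 19938 genes with a probe set of their own: 10 in Hoxa and 9 each in Hoxb, Hoxc and Hoxd. Each had 1 probe set, so no choice between probe sets was needed. Hoxb8 is named only together with Hoxb7, so it was not analysed here.

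The control group (2 arrays) is given by the labels as TRE-Ovol2-Flag without a driver, or wild type, of strain CB6F1. The Ovol2 BT group (2 arrays) is TRE-Ovol2-Flag;K5-tTA, of strain FVB/N, so that the transgene is driven in the K5-expressing basal keratinocytes. Each array held RNA of 2 mice labelled female, and the mice are called littermates. As labelled, strain and genotype cannot be told apart. The study asks how epidermal differentiation changes when the zinc finger factor Ovol2 is overexpressed in the epidermis. No label gives the body region from which skin was taken. Intensities of Ovol2 itself were 360 and 161 in control skin against 4367 and 3893 with the driver.

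Hox genes encode homeodomain transcription factors that mark position along the body. Within a cluster, genes at one end (low numbers, here 1 to 4, called anterior) are active toward the head, those in the middle (5 to 8, central) in the trunk, and those at the other end (9 to 13, posterior) toward the tail and in distal limbs. Genes with the same number in different clusters are paralogues. In skin, dermal fibroblasts keep a Hox pattern that reflects where on the body they lie, and Hoxc13 is also active in the hair follicle, where it controls keratin genes of the hair shaft. The clusters also hold microRNA genes of the miR-10 and miR-196 families, which target Hox transcripts.

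The microRNA genes are shown because 6 of them lie in the Hox clusters and have a value on these arrays. The mature sequences from RefSeq (GRCm38.p6), with the seed (bases 2 to 8) in capitals, fall into groups by seed. miR-10a and miR-10b share theirs, miR-196a and miR-196b share another, and the arms of miR-615 have their own.
miR-10a-5p (chr11:96317186-96317208 +): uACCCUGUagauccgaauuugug
miR-10b-5p (chr2:74726074-74726096 +): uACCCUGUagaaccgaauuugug
miR-196a-5p (chr11:96265187-96265208 + and chr15:102973365-102973386 +): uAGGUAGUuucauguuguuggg
miR-196b-5p (chr6:52230129-52230150 -): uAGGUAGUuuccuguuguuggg
miR-615-5p (chr15:103014926-103014947 +): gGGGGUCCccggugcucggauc
miR-615-3p (chr15:103014969-103014990 +): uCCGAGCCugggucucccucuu
The probe sets name the microRNA genes and not an arm, so they are read as signal from the locus and not as mature microRNA.

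Promoters are shown for paralogue 4, because Hoxc4 is the Hoxc gene with a promoter in the table and the order of arrays differed between members. Both Ovol2 BT arrays lay below the controls for Hoxb4 and Hoxc4 and above them for Hoxd4. None of these genes was called as different, and the groups did not overlap for 42.3% of all genes tested. Each line gives the 250 bases before the start of transcription from RefSeq (GRCm38.p6, + strand), and capitals mark the motif matches counted below.
Hoxb4 (chr11:96318017-96318266): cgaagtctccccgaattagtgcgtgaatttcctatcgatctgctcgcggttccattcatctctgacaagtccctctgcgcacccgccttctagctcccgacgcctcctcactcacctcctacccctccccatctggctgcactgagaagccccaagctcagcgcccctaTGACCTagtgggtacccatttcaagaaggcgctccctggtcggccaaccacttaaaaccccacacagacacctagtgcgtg
Hoxc4 (chr15:103034145-103034394): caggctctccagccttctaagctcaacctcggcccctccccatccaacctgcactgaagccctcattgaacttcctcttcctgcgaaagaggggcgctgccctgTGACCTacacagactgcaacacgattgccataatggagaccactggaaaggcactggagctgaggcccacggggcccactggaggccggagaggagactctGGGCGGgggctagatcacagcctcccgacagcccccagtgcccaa
Hoxd4 (chr2:74721728-74721977): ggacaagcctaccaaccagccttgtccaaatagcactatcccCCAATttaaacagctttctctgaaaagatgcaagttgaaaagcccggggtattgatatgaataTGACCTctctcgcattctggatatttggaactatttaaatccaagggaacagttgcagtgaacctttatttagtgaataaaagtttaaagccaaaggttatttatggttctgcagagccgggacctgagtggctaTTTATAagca
The motif AGGTCA (a core motif of nuclear receptor sites) was found in all 3, each time as TGACCT on the strand shown, starting 81, 146 and 145 bases before the start in Hoxb4, Hoxc4 and Hoxd4. Promoters were in the table for 21 of the 37 Hox genes, 23 in all, and Hoxa4 was not among them. AGGTCA on either strand was in 6 of these 23 promoters (26.1%) and in 14.02% of all 32851 promoters of the same length. The Hox windows held a median of 13 CpG dinucleotides (2 to 35) against 6 over all promoters. CCAAT was found in 13 of 23 Hox promoters (56.5%, 33.8% over all), GGGCGG in 9 (39.1%, 32.7% over all) and TATAAA in 3 (13.04%, 12.4% over all). The Pbx-Hox composite motif TGATNNAT was found in 3, those of Hoxa2, Hoxb1 and Hoxd11 (13.04%, 7.68% over all). Each motif was searched on both strands. Of 55 matches 11 overlapped another match of the same motif, in Hoxa6 (GGGCGG) and Hoxd13 (GGGCGG and TATAAA). These counts describe letters in a window and are no measure of binding.

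No Hox gene was called as different between Ovol2 BT and control skin. Differences are Ovol2 BT minus control in log2(intensity + 16), tested with limma over all genes and called at a Benjamini-Hochberg adjusted p under 0.05. The filter that removed the lowest 25% of genes by mean level kept 31 of the 37 Hox genes, and 0 of these were called, against 0.963% of the 14953 genes tested. At an unadjusted p under 0.05 there were 4 Hox genes, 3 lower (Hoxc5, Hoxc8 and Hoxc13) and 1 higher (Hoxc10) in Ovol2 BT. The shares over all genes were 5.25% lower and 5.12% higher, so 4 of 31 is close to the overall 10.4%. The smallest adjusted p among Hox genes was 0.209. The median Hox difference was -0.06, beside -0.04 over all genes tested.

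**Figure D1:**
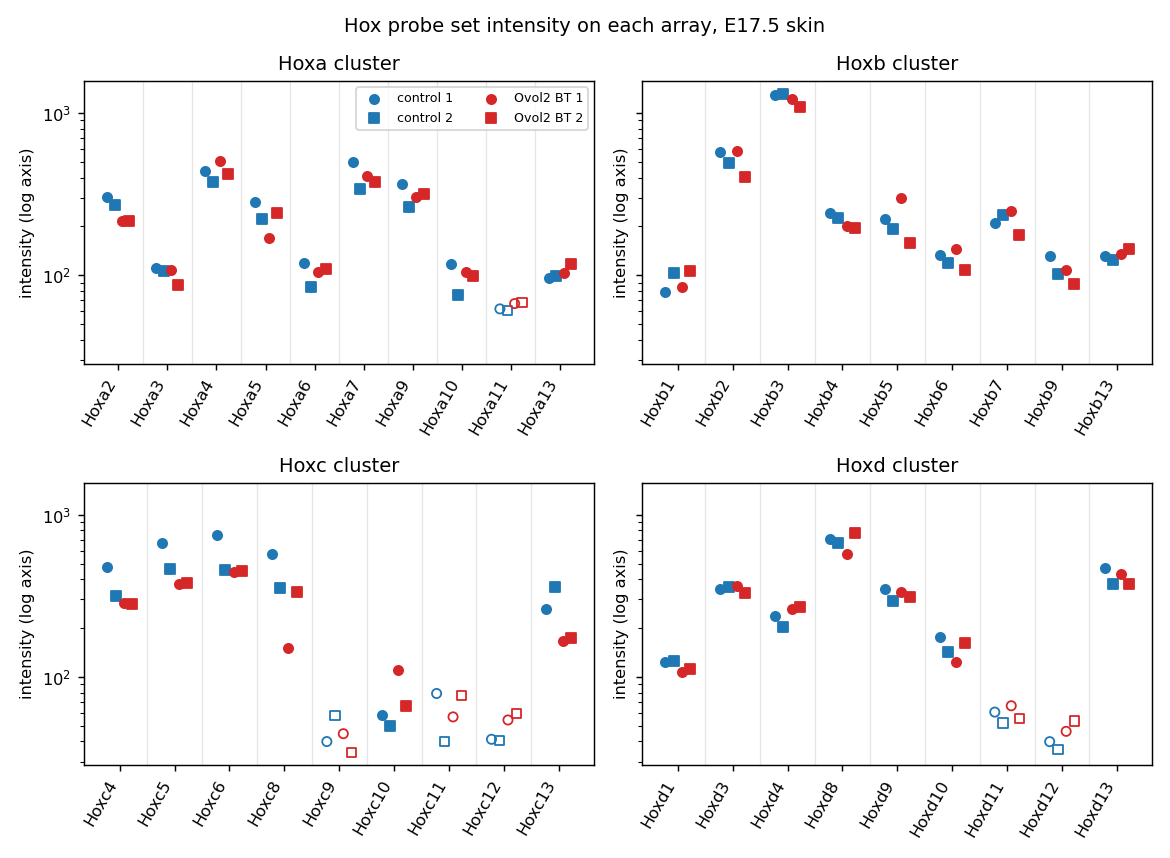
Deposited intensity (log axis) of each Hox probe set on the 4 arrays, in a panel per cluster, with controls in blue, Ovol2 BT in red, replicate 1 as circles and replicate 2 as squares. Open symbols are the 6 genes below the filter, and levels of different genes cannot be compared. In Hoxa, Hoxb and Hoxd most genes have the groups mixed, while in the 6 tested Hoxc genes they do not overlap. The margin is narrow for Hoxc6 (control 2 at 453, Ovol2 BT 2 at 449) and Hoxc8 (354 and 332).

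The limits on the size of a missed change differed between clusters. With 2 arrays per group, the 95% interval of the difference lay within 1 log2 unit either way for all 9 tested Hoxa genes, all 9 Hoxb genes and all 7 Hoxd genes. In Hoxc this held for 2 of 6 (Hoxc4 and Hoxc6). The lowest bound of any Hox gene was -1.76 (Hoxc8) and the highest 1.0 (Hoxc10). A missed call thus does not show that a gene was at the same level in both groups. In whole skin, fewer cells of a type and less RNA per cell also cannot be told apart.

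**Figure D2:**
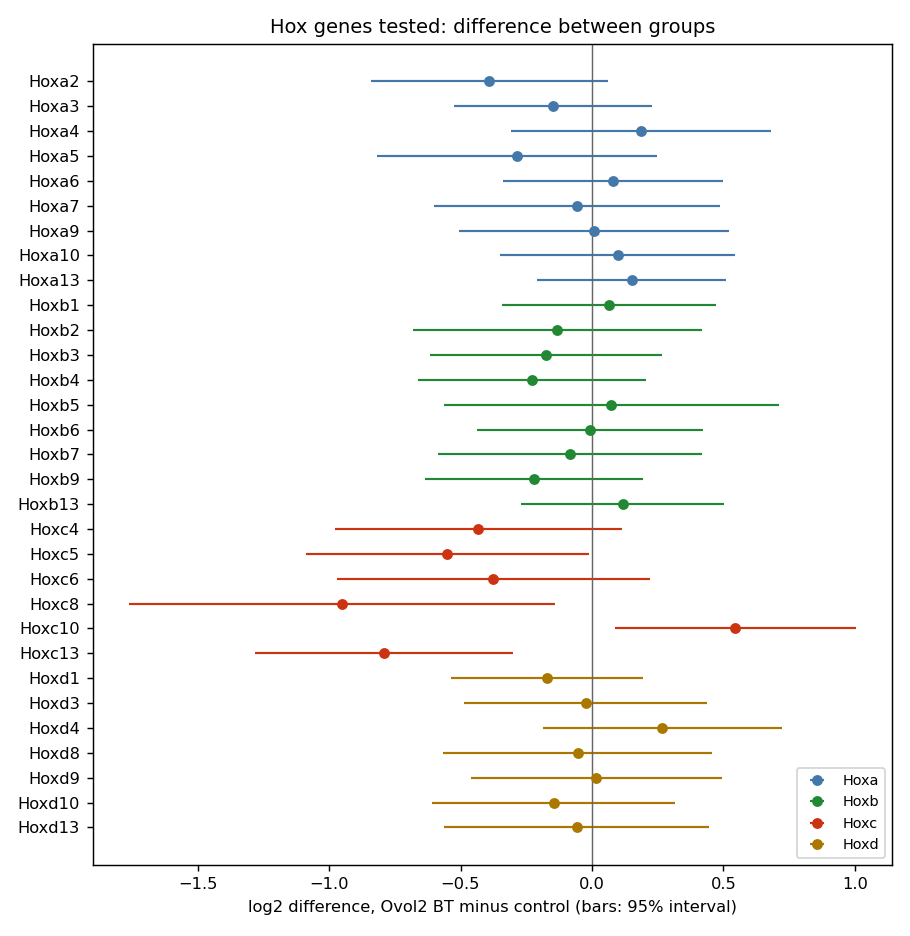
Log2 difference (Ovol2 BT minus control) of the 31 Hox genes tested, with 95% intervals from limma, coloured by cluster and ordered by paralogue number. Intervals of Hoxa, Hoxb and Hoxd genes all span 0, and those of Hoxc5, Hoxc8, Hoxc10 and Hoxc13 do not, before adjustment over all genes.

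Hoxc13, the posterior Hoxc gene of hair follicle and nail, had the smallest p of the Hox genes. Intensities were 264 and 357 in control skin against 166 and 175 in Ovol2 BT. Both Ovol2 BT arrays lay below both controls, and the controls differed from each other more than the Ovol2 BT arrays did. The difference was -0.79 (SE 0.22, 95% interval -1.28 to -0.30, limma adjusted p = 0.209), and its p ranked 379 among all genes tested. With 1 array left out it was -1.0 (without control replicate 1) to -0.58 (without control replicate 2).

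Values of some hair follicle markers also differed between these arrays. The follicle list (17 of 20 genes with a value) summed to 4452 and 7061 in control skin against 3527 and 3610 in Ovol2 BT. Bright genes weigh most in this sum: Lhx2 had 1288 and 1667 in control skin against 386 and 418 in Ovol2 BT. Krt25 had 375 and 1218 against 211 and 259, and Krt71 had 399 and 1210 against 256 and 320. Gene by gene, 10 of the 16 tested genes had higher values in Ovol2 BT and 6 lower, with a median difference of 0.15. Of the 16 tested genes 2 were called by limma, both lower: the transcription factor genes Lhx2 (-1.83, SE 0.22, adjusted p = 0.00729) and Msx2 (-1.24, SE 0.19, adjusted p = 0.0190). The inner root sheath keratin genes Krt25 (-1.47, adjusted p = 0.272), Krt28 (-1.19, adjusted p = 0.171) and Krt71 (-1.24, adjusted p = 0.353) had lower values and were not called, as did Krt27 (-0.73, adjusted p = 0.421). Krt73, of the same layer, was at 0.14 (adjusted p = 0.889), with 269 and 559 in control skin against 407 and 454 in Ovol2 BT, so its groups overlapped. The hair shaft keratin genes had other values: Krt34 was at 0.52 (adjusted p = 0.299), Krt86 at 0.60 (adjusted p = 0.433), Krt36 at 0.37 and Krt35 at 0.01. Foxn1, a transcription factor gene that acts with Hoxc13 in hair keratin expression, was at 0.17 (adjusted p = 0.824). The part of follicle content in the value of Hoxc13 was not tested.

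Hoxc4, Hoxc5 and Hoxc6, neighbours in the cluster, had the controls in the same order, above both Ovol2 BT arrays. Hoxc5 had intensities of 673 and 464 in control skin against 376 and 378 in Ovol2 BT. Hoxc4 had 474 and 315 against 284 and 281, and Hoxc6 had 747 and 453 against 441 and 449. In each gene control replicate 1 was the highest array, control replicate 2 came next and the Ovol2 BT arrays were lowest and close together. For Hoxc6, control replicate 2 (453) lay barely above Ovol2 BT replicate 2 (449). The differences were -0.43 for Hoxc4 (SE 0.24, adjusted p = 0.582), -0.55 for Hoxc5 (SE 0.24, adjusted p = 0.473) and -0.37 for Hoxc6 (SE 0.26, adjusted p = 0.643). They rest largely on control replicate 1: without it they were -0.15, -0.29 and -0.02, and without control replicate 2 they were -0.72, -0.81 and -0.73. The gap between the controls (0.57, 0.52 and 0.70 on the log2 scale) was larger than the group difference for Hoxc4 and Hoxc6.

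Hoxc8, a trunk gene, had the lowest difference of any Hox gene, and it varied most. Intensities were 572 and 354 in control skin against 151 and 332 in Ovol2 BT, so that Ovol2 BT replicate 2 lay just under control replicate 2. The difference was -0.95 (SE 0.36, 95% interval -1.76 to -0.14, adjusted p = 0.415). Without Ovol2 BT replicate 2 it was -1.48 and called by limma (adjusted p = 0.0328), and without control replicate 2 it was -1.29 (adjusted p = 0.0103). Without Ovol2 BT replicate 1 it was -0.42 (adjusted p = 0.759), and without control replicate 1 it was -0.62 (adjusted p = 0.491). These fits rest on a lone array in a group, assumed to vary like the others, and called 1.67%, 1.42%, 1.40% and 2.45% of all genes.

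Hoxc10, a posterior gene of hindlimb and lower trunk, was the exception among the tested genes of the cluster, with a higher value in Ovol2 BT. Intensities were 58.5 and 49.8 in control skin against 111 and 66.4 in Ovol2 BT. The separation rests on Ovol2 BT replicate 1, with Ovol2 BT replicate 2 close to the controls. The difference was 0.55 (SE 0.20, limma adjusted p = 0.408), 0.24 without Ovol2 BT replicate 1 and 0.86 without Ovol2 BT replicate 2. Its mean level lay only 0.02 log2 units above the filter, and that mean includes the high array. The remaining Hoxc genes did not pass the filter: Hoxc9 had 39.9 and 58.0 in control skin against 44.6 and 34.1 in Ovol2 BT. Hoxc11 had 78.9 and 40.1 against 56.6 and 76.4. Hoxc12 had 41.2 and 40.4 against 54.2 and 59.6, both Ovol2 BT arrays being higher.

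**Figure D3:**
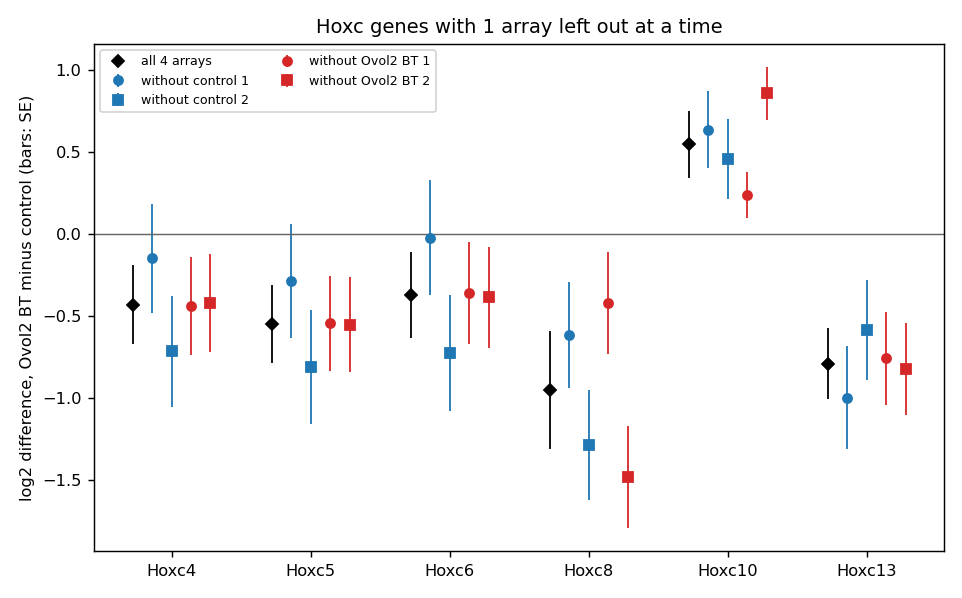
Log2 difference (Ovol2 BT minus control, bars are SE) of the 6 tested Hoxc genes with all 4 arrays and with each array left out. Hoxc4, Hoxc5 and Hoxc6 lie nearest 0 without control replicate 1, and Hoxc8 and Hoxc10 move most between the fits without either Ovol2 BT array.

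As a cluster, 5 of the 6 tested Hoxc genes had both Ovol2 BT arrays below both controls and 1 had them above. Over all genes tested these shares were 21.9% and 20.4%, or 42.3% in either direction, beside 13 of 31 Hox genes. In the other clusters the groups overlapped for 18 of 25 tested genes. The median Hoxc difference was -0.49, between -0.72 and -0.22 with 1 array left out, and the medians of Hoxa, Hoxb and Hoxd were 0.01, -0.08 and -0.05. With each array centred on its desmosome and adherens junction genes, which moved the median of all genes to 0.53, the Hoxc median was 0.08. There Hoxc4 (0.14), Hoxc5 (0.02) and Hoxc6 (0.20) had values above 0, while Hoxc8 (-0.38) and Hoxc13 (-0.22) kept theirs below. Hoxc10 was at 1.12 there and was called by limma (adjusted p = 0.000117). In that fit limma took the variance wholly from the trend over all genes, and the spread of Hoxc10 itself did not enter. That centring called 8 of 31 Hox genes, all higher, where 28.6% of all genes were called and 28.3% were called higher.

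The gap between the controls was set beside these differences. It lies between single arrays, while a group difference lies between means of 2 arrays. With array spread alone the gap would thus more often be the larger. For 19 of the 31 Hox genes (61.3%) the difference between groups was smaller than that between the controls, beside 50.7% of all genes tested. Control replicate 1 lay above control replicate 2 in 24 of the 31, with a median gap of 0.21, and the median gap over all genes was 0.05. The widest gaps outside Hoxc were in central and posterior Hoxa genes: 0.54 for Hoxa10, 0.53 for Hoxa7, 0.45 for Hoxa9 and 0.42 for Hoxa6. Each of these had a difference between groups of at most 0.10 in size.

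**Figure D4:**
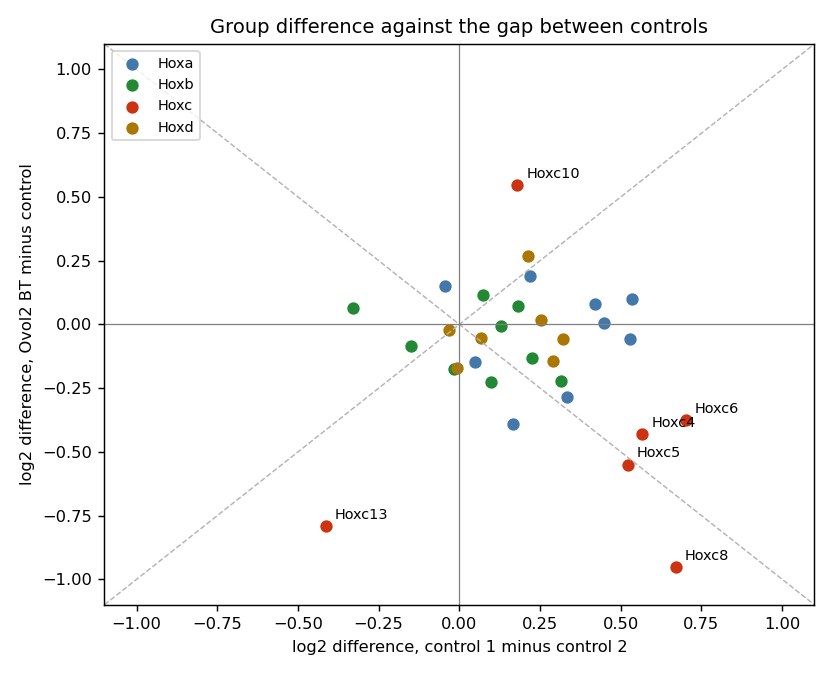
Log2 difference between groups (Ovol2 BT minus control) against that between the controls (replicate 1 minus replicate 2) for the 31 Hox genes tested, coloured by cluster. Between the dashed diagonals to the left and right the gap between controls is the larger, and 19 genes lie there, Hoxc4 and Hoxc6 among them.

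Among anterior genes, none of the 11, all of which passed the filter, was called. Hoxa2, a gene of hindbrain and neural crest patterning, had 304 and 269 in control skin against 214 and 214 in Ovol2 BT, without overlap. Its difference was -0.39 (SE 0.20, adjusted p = 0.551), the largest in size outside Hoxc. Hoxb3 had 1299 and 1313 in control skin against 1223 and 1091 in Ovol2 BT (-0.18, SE 0.20, adjusted p = 0.768). Its controls lay close together, and Ovol2 BT replicate 2 was lowest.

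Paralogue 4 had a value in all 4 clusters, and its members did not share a direction. Hoxa4 had 437 and 374 in control skin against 507 and 423 in Ovol2 BT, with overlap (0.19, SE 0.22, adjusted p = 0.777). Hoxb4 had 243 and 226 against 201 and 194, both Ovol2 BT arrays being lower (-0.23, SE 0.19, adjusted p = 0.694). Hoxd4 had 237 and 202 against 264 and 270, both being higher (0.27, SE 0.20, adjusted p = 0.657). With Hoxc4 at -0.43, the members of paralogue 4 thus spanned 0, and the interval of each included 0. The other anterior genes lay between -0.17 and 0.07. Hoxd1 had 124 and 125 in control skin against 106 and 111 in Ovol2 BT (-0.17, SE 0.16, adjusted p = 0.728). Hoxb1 had 78.5 and 103 against 84.7 and 106 (0.07), where replicate 2 was the higher array in both groups.

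Of the 10 central genes, 8 had lower values in Ovol2 BT, those of Hoxc5, Hoxc6 and Hoxc8 among them, beside 55.6% of all genes tested. The median of the 10 was only -0.07. For 8 of the 10 the group difference was smaller than the gap between the controls, beside 50.7% of all genes tested. Hoxa5, a gene of cervical and thoracic identity, had 284 and 222 in control skin against 171 and 242 in Ovol2 BT (-0.28, SE 0.24, adjusted p = 0.688), so the groups overlapped. Hoxb5 had the widest spread within a group outside Hoxc, with 221 and 193 in control skin against 300 and 158 in Ovol2 BT (0.07, SE 0.28). Hoxd8 had 706 and 673 against 570 and 771 (-0.05, SE 0.23, adjusted p = 0.943). Hoxa6, Hoxa7, Hoxb6 and Hoxb7 lay between -0.08 and 0.08.

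Posterior genes were the class with genes below the filter: 10 of 16 were tested, and all 6 Hox genes left out were posterior. Paralogue 13, the last of each cluster and a marker of distal limb, tail and genital tissue, had a value in all 4 clusters. Hoxa13 had 96.0 and 99.4 in control skin against 104 and 117 in Ovol2 BT (0.15, SE 0.16, adjusted p = 0.752). Hoxb13 had 132 and 124 against 135 and 145 (0.12, SE 0.17, adjusted p = 0.824). Both genes had higher values on each Ovol2 BT array by a margin within the error. Hoxd13 had 470 and 373 against 432 and 373 (-0.06, SE 0.22, adjusted p = 0.937), with replicate 1 the higher in both groups. Hoxc13, described above, was thus the paralogue 13 gene with the largest difference. Its interval (-1.28 to -0.30) overlapped that of Hoxd13 (-0.56 to 0.45), but not that of Hoxa13 (-0.21 to 0.51) or Hoxb13 (-0.27 to 0.50). A difference between paralogues was not tested.

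The other posterior genes tested lay between -0.22 and 0.10, Hoxc10 aside. Hoxb9 had 131 and 102 in control skin against 108 and 87.9 in Ovol2 BT (-0.22, SE 0.18, adjusted p = 0.688). Hoxa9, Hoxd9, Hoxd10 and Hoxa10 were at 0.01, 0.02, -0.15 and 0.10. Below the filter, Hoxa11 had 62.0 and 60.7 in control skin against 66.8 and 68.1 in Ovol2 BT, and it lay nearest under the limit. Hoxd11 had 60.6 and 51.8 against 66.3 and 55.6, and Hoxd12 had 39.8 and 35.4 against 46.1 and 53.4.

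Of the noncoding genes of the clusters, the microRNA genes whose sequences are given above were mostly dim. Mir10a (12.3 and 6.14, then 14.4 and 4.41 in Ovol2 BT) and Mir10b (8.78 and 3.47, then 9.56 and 7.37) were below 16 on every array and were not tested. Mir196a-1 and Mir196a-2, which encode the same mature miR-196a-5p, had 13.7 to 43.6 and were not tested either. Mir196b had 72.6 and 64.7 in control skin against 83.6 and 77.9 in Ovol2 BT (0.19, SE 0.14, adjusted p = 0.655). Mir615, which lies in the Hoxc cluster, had 125 and 139 in control skin against 188 and 189 in Ovol2 BT. Both Ovol2 BT arrays were higher, with a difference of 0.47 (SE 0.18, limma adjusted p = 0.421), while that of Hoxc5 was -0.55. Hoxd3os1, an antisense gene of Hoxd, had 102 and 72.8 against 98.9 and 106 (0.21, SE 0.18, adjusted p = 0.698), with overlap. Hottip, a noncoding gene at the posterior end of Hoxa, had 51.6 and 52.6 against 65.4 and 61.6 and was below the filter.

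Proteins that act with Hox factors or on the clusters were not called either. In 6 lists of related genes limma called 0 of 80 tested genes (0.963% over all genes), with 2 higher and 3 lower at an unadjusted p under 0.05 and a smallest adjusted p of 0.241. Of the 8 TALE cofactors, homeodomain partners that bind DNA together with Hox proteins, 6 had lower values (median -0.18). Pknox1 had 250 and 285 in control skin against 193 and 212 in Ovol2 BT (-0.37, SE 0.20, adjusted p = 0.567). Pbx3 was at -0.30 (adjusted p = 0.635), Pbx2 at -0.20 (adjusted p = 0.748), Meis1 at -0.17 and Meis2 at -0.08.

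The Polycomb group keeps Hox genes silent and the Trithorax group, with MLL, keeps them active. Of 22 tested Polycomb genes 17 had lower values (median -0.19), and of 15 Trithorax and MLL genes 13 did (median -0.25), beside 55.6% of all genes tested. That share is not matched for level: with the lowest 50% of genes left out, the all-gene median was -0.09, against -0.04 before. Whether these lists differ from genes of like level was not tested. Polycomb genes summed to 14478 and 16071 in control skin against 12751 and 14064 in Ovol2 BT. Trithorax and MLL genes summed to 10726 and 11711 against 10232 and 9976, with control replicate 2 highest in both lists. Among Polycomb genes with the smallest p, Rbbp4 was at -0.36 (adjusted p = 0.576), Mtf2 at -0.49 (adjusted p = 0.586) and Pcgf6 at -0.54 (adjusted p = 0.613). Ezh2, the histone H3 methyltransferase of the complex, was at -0.26 (SE 0.25, adjusted p = 0.732). Psip1 (-0.48, adjusted p = 0.557), Dpy30 (-0.39, adjusted p = 0.597) and Wdr5 (-0.34, adjusted p = 0.613) led the Trithorax list, and Kmt2a, which encodes MLL, was at -0.26 (adjusted p = 0.676).

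Upstream regulators include retinoic acid signalling, which activates anterior Hox genes. Of 14 tested, 9 had higher values (median 0.13). Rxrg, a retinoid X receptor gene, had 341 and 283 in control skin against 543 and 517 in Ovol2 BT (0.74, SE 0.21, adjusted p = 0.241), without overlap. Gdf11, a ligand gene that sets the onset of posterior Hox genes, had 274 and 253 against 203 and 155 (-0.53, SE 0.21, adjusted p = 0.435). Rarb, itself a target of retinoic acid, was at 0.34 (adjusted p = 0.586). Cyp26b1, which degrades retinoic acid, was at -0.23.

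Of 18 other tested factors of body position, 12 had lower values (median -0.07). Shox2, a limb factor, had 189 and 145 in control skin against 89.5 and 109 in Ovol2 BT (-0.66, SE 0.19, adjusted p = 0.254). Emx2 had 182 and 158 against 93.9 and 142 (-0.50, SE 0.22, adjusted p = 0.473). The limb identity genes Tbx5 (forelimb, -0.06), Tbx4 (hindlimb, 0.26, adjusted p = 0.658) and Pitx1 (hindlimb, 0.15) and the ventral limb gene En1 (-0.09) were not called. Tbx15, a gene of dorsoventral skin patterning, had 1266 and 1621 against 1084 and 1461 (-0.18, SE 0.23, adjusted p = 0.792).

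**Figure D5:**
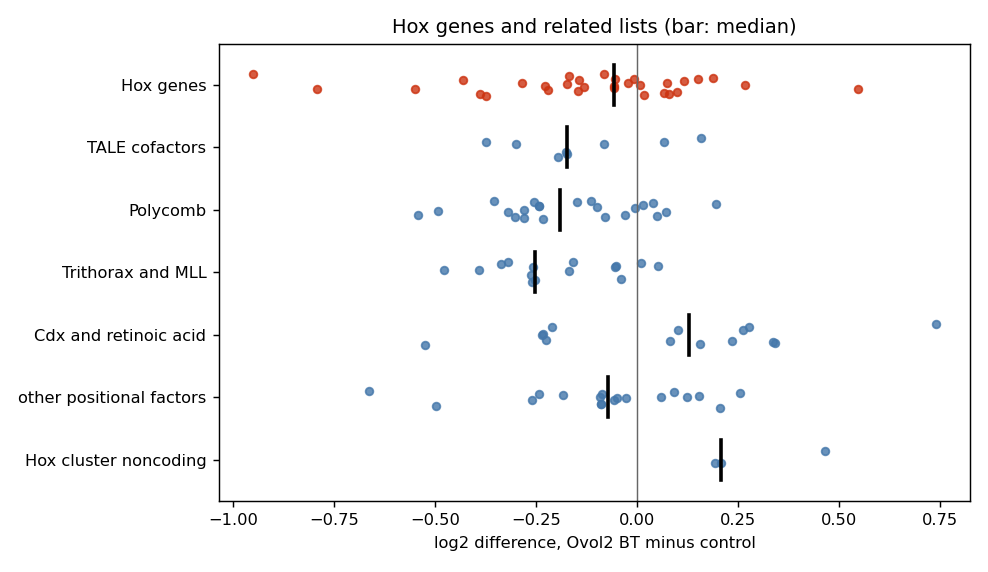
Log2 difference (Ovol2 BT minus control) of each tested Hox gene and of each tested gene of the 6 related lists, with a bar at the median. The Polycomb and Trithorax lists lie mostly below 0, with medians of -0.19 and -0.25, and points spread in height only to separate them.

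The cell makeup of the samples was read from marker lists. The 10 dermal fibroblast markers, among them Col1a1, Pdgfra and Dcn, had summed intensities of 43149 and 43544 in control skin against 43159 and 42883 in Ovol2 BT, and none was called. Skeletal muscle markers summed to 22925 to 23556 in control skin against 25780 to 29738 in Ovol2 BT, with 0 of 8 called and 7 of 8 at higher values. Basal keratinocyte markers summed to 22316 to 24725 in control skin against 11100 to 13067, with 3 of 7 called, all lower (Krt5, Krt14 and Krt15). The other basal markers were not called: Trp63 was at -0.35, Col17a1 at -0.23, Itga6 at -0.05 and Itgb4 at 0.24. Adipocyte markers summed to 3649 to 4966 against 14979 to 15528, with 7 of 9 tested genes called, all higher. Of 6 cartilage and bone, 5 nerve, 5 endothelial and 4 blood cell markers tested, 0 were called. No marker with a value was below 16 on every array. The part of these shifts in any Hox value was not tested.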

How the data were processed

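Total RNA of E17.5 skin was measured on 4 arrays, each of RNA from 2 mice. Each deposited value is a probe set's intensity on a linear scale. Per the submitters' processing notes, the authors used Expression Console 1.1.1 (Affymetrix) with PLIER 2.0. How PLIER corrected background and normalized is not stated in those notes, and the values hold no detection calls. Array medians were 123, 126, 126 and 132, and no further normalization was applied. Groups and replicate numbers come from the titles. Nothing beyond the word biological says how replicates differ, so p-values measure the spread between these arrays. In limma the variance of each gene was drawn toward a trend over all genes, with 6.95 prior against 2 residual degrees of freedom.

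Of 35557 probe sets 21789 name 1 gene. Genes below the 25% point of mean log2(intensity + 16) were left out, leaving 14953. The group term was tested in R 4.3.3 by lmFit and trended eBayes of limma 3.58.1 (two-sided). P-values were adjusted by Benjamini-Hochberg across the genes tested and called under 0.05, and the script was tested on simulated data. Fold changes of dim genes are understated by the pseudocount of 16. Sequences are RefSeq's. Figures used Python 3.11.15 and matplotlib 3.10.9. The members and lists were chosen with earlier results of these data known. Values are given in full for the 12 Hox genes with the smallest p, those with the highest and lowest mean in each cluster, and paralogue 13; other Hox genes given in full were chosen after their values were seen. In each related list the 3 genes with the smallest p were to be named, and others were added after their values were seen.

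The alternatives were pseudocounts of 1 and 64, no filter or 50% left out, quantile, median and junction gene centring, no or a robust variance trend, the mean of probe sets, each array left out, a replicate block, and a threshold of 0.10.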

Additional observations from a re-analysis of the deposited data

How the results depend on the processing

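With 4 arrays and 2 residual degrees of freedom, the number of arrays limits every value. The alternatives without a value given here kept 0 Hox genes called and kept the count of all genes called within 1.5 times 144. Centring each array on its desmosome and adherens junction genes took the all-gene median from -0.04 to 0.53. Under it 4278 genes were called (4233 higher, 45 lower), 98.9% of them higher against 63.9%, with 8 Hox genes, all higher, and 15 genes of the related lists. The medians were then 0.52 for all Hox genes, 0.58 for Hoxa, 0.49 for Hoxb, 0.083 for Hoxc and 0.52 for Hoxd, and 18 of 31 Hox genes changed sign. Of the 15 tested genes of that junction list 14 had lower values in Ovol2 BT (median -0.27), so centring on them raises other genes by construction. With the replicate number as a block 652 genes were called, with 1 Hox gene (Hoxc13, adjusted p = 0.0219 by limma) and 1 gene of the related lists (Rxrg). No label says that arrays of the same number belong together: their deviations correlated at 0.41 over all genes tested and at -0.18 over the Hox genes. With 1 array left out, 209 to 366 genes, 0 to 2 Hox genes (Hoxc8 and Hoxc10) and 0 genes of the related lists were called. These fits rest on a lone array in a group, and without either control replicate limma took the variance wholly from the trend over all genes. Over the same fits the medians ran from -0.17 to -0.016 for all Hox genes, -0.17 to 0.21 for Hoxa, -0.26 to 0.071 for Hoxb, -0.72 to -0.22 for Hoxc and -0.11 to 0.04 for Hoxd. Between 4 and 7 Hox genes changed sign in each of these fits, none of them in Hoxc. At a threshold of 0.10 limma called 0 Hox genes and 215 genes in all.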
